A study of Mus musculus with 4 samples.

Results

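The 4 inhibitor of DNA binding genes of the mouse, Id1, Id2, Id3 and Id4, were followed through mammary epithelial cells by cell class and by stage. They are 4 of the 27998 genes in each count table, and all 4 were among the 11131 genes kept by the fit between cell classes. The family was chosen by the level of Id4, known from an earlier analysis of these counts to be higher in basal cells of diestrus than of estrus. That ratio is therefore given as a description.

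Id proteins carry a helix-loop-helix domain but lack the basic region that contacts DNA. They pair with E proteins, the partners of tissue-specific basic helix-loop-helix factors, and keep them from binding DNA. Id1, Id2 and Id3 are well-known targets of BMP signaling through SMAD proteins, and Id4 is known in the mammary gland as a regulator of basal cells.

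Female FVB/NJ mice with no treatment were used at puberty (5 weeks of age) and as adults (10 weeks) in the estrus or the diestrus phase of the ovarian cycle. Total mammary epithelium, sorted as CD24+ cells lacking blood and endothelial surface markers, was pooled over mice and captured on the 10x Genomics Chromium system, which counts the 3′ ends of RNA molecules. Each stage had 1 library, and stages were compared without a test. The puberty library was deposited as a pair of tables that shared 5387 barcodes, with a Pearson r of 0.997 between cell totals, and was used as 1 library through its first table. Other libraries shared at most 24 barcodes.

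The libraries held 2439 to 5387 cells and 10962454 to 25303015 counts, with a median of 3236 to 4123 counts per cell. Cells were named from fixed markers as basal-like, luminal progenitor-like (LP) and mature luminal-like (ML), and the names basal, LP and ML are used for these rebuilt classes. The median basal cell had counts for 7 or 8 of 8 basal markers, the median LP cell for 5 of 8 LP markers and the median ML cell for 5 or 6 of 8 ML markers. Basal cells numbered 1119 at puberty, 1307 in estrus and 1050 in diestrus. Intermediate luminal cells and mixed basal-luminal cells, which could include doublets, were kept apart. Between 0.517% and 0.596% of epithelial cells lay near the basal border, and 2.61% to 3.14% of luminal cells near an LP or ML border.

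On the mouse assembly GRCm38, Id1 (ENSMUSG00000042745) lies on chromosome 2 at 152736251 to 152737410, Id2 (ENSMUSG00000020644) on chromosome 12 at 25093799 to 25097140, Id3 (ENSMUSG00000007872) on chromosome 4 at 136143497 to 136145755 and Id4 (ENSMUSG00000021379) on chromosome 13 at 48261228 to 48266026. Id2 is on the minus strand and the others on the plus strand. No word of 40 bases from the last 400 bases of the first listed transcript of any member occurred in a transcript of another gene. Id4 overlaps A330033J07Rik and Gm49291, both annotated on the opposite strand.

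RefSeq promoter windows (GRCm38.p6) were found for 3 of the 4 members, Id2, Id3 and Id4. The 250-base stretches of Id2 and Id3 had 161 and 250 bases in annotated exons of the same gene and are not shown. The stretch upstream of Id4, the member whose level differed most between libraries, is shown. It spans the 250 bases before the RefSeq start site, chr13:48260866-48261115 on the plus strand, a start upstream of the GENCODE gene start given above, and none of its bases lies in an annotated Id4 exon. Capitals mark GGCGCC, a core sequence bound by BMP SMADs, and CCAAT or its reverse complement ATTGG.

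Id4 upstream: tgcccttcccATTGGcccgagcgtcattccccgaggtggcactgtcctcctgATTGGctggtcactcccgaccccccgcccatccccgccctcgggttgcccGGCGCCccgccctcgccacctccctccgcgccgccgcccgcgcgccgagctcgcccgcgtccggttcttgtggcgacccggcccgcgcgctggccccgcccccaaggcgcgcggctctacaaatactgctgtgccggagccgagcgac

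The stretch held 1 GGCGCC, starting 148 bases before the RefSeq start site, and 2 copies of CCAAT, and 75.6% of its bases were G or C. Both strands were searched, and the motifs did not overlap. GGCGCC was found in 9.59% of all 32851 upstream stretches of this length and CCAAT in 33.8%. These matches are descriptions of letters and not of binding.

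Each member had its own distribution over the cell classes. Id1 was highest in LP cells, Id2 was high in basal and LP cells and lower in ML cells, Id3 was highest in ML cells and Id4 was found almost entirely in basal cells. Levels are TMM-scaled CPM, the usual depth-normalized counts, of the summed cells of a class, and log2 fold changes come from edgeR with library as a block, with Benjamini-Hochberg adjusted p over all 11131 genes and a threshold of 0.01. At that threshold 40.3% of genes were called basal against luminal (the mean of LP and ML) and 28.2% LP against ML. The comparisons of basal with LP and with ML alone were added after the levels were seen, and 33.1% and 43.1% of genes were called in them.

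Id1 in LP cells was at 165.6 CPM at puberty, 376.8 in estrus and 115.1 in diestrus. In basal cells it was at 27.2, 62.2 and 76.5 CPM, and in ML cells at 7.31, 9.36 and 12.9 CPM. The order LP, basal, ML held in all 3 libraries, and the classes did not overlap. Id1 was higher in LP than in ML cells by 4.41 on the log2 scale (SE 0.398, edgeR adjusted p 7.48e-06). Basal cells were lower than LP cells (log2 fold change -1.97, SE 0.348, edgeR adjusted p 0.000827) and higher than ML cells (2.45, SE 0.394, adjusted p 0.000322). Without the estrus library the difference from LP cells was -1.55 and did not pass (edgeR adjusted p 0.0125). Because basal cells lay between the luminal classes, basal against luminal as a whole gave 0.24 (SE 0.313, adjusted p 0.547).

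Id2 was at 228.2, 382.5 and 216.7 CPM in LP cells of puberty, estrus and diestrus. It was at 150.8, 216.5 and 166.7 CPM in basal cells, and at 77.9, 20.3 and 33.9 CPM in ML cells. Both LP and basal cells stood above ML cells in each library. LP exceeded ML by 2.62 (SE 0.399, edgeR adjusted p 0.000372) and basal exceeded ML by 2.02 (SE 0.393, adjusted p 0.00118). Without the diestrus library the latter was 1.83 and did not pass (edgeR adjusted p 0.0178). LP was above basal in 3 of 3 libraries, but the difference did not pass (basal minus LP -0.60, SE 0.363, edgeR adjusted p 0.204). Basal against luminal as a whole gave 0.71 (edgeR adjusted p 0.0803), and 1.05 without the puberty library (adjusted p 0.00173).

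Id3 ran the opposite way to Id1 in the luminal classes. It was at 595.1, 488.6 and 466.9 CPM in ML cells and at 32.6, 38.0 and 15.3 CPM in LP cells of puberty, estrus and diestrus. In basal cells it was at 125.4, 278.9 and 154.5 CPM, between the luminal classes in every library. Id3 was lower in LP than in ML cells (log2 fold change -4.22, SE 0.285, edgeR adjusted p 7.93e-07). Basal cells were higher than LP cells by 2.69 (SE 0.277, adjusted p 1.73e-05) and lower than ML cells (-1.54, SE 0.245, edgeR adjusted p 0.000298). Basal against luminal gave 0.57 (edgeR adjusted p 0.0438), 0.88 without the puberty library (adjusted p 0.00241) and 0.10 with Leiden classes (adjusted p 0.784). With Leiden classes basal exceeded LP cells by 1.51 (edgeR adjusted p 0.00658).

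Id4 was at 11.2 CPM in basal cells of puberty, 23.3 in estrus and 213.6 in diestrus, from 45, 112 and 1063 counts. All LP cells together had 1, 1 and 4 Id4 counts in the same libraries, and all ML cells 2, 0 and 5. Basal cells exceeded luminal cells in Id4 by 6.85 (SE 0.263, edgeR adjusted p 6.3e-09), and LP and ML did not differ at this depth (0.25, SE 0.657, adjusted p 0.823). The basal-to-luminal fold rests on few luminal counts and depends on how such counts are moderated. DESeq2 gave 6.90 with an SE of 0.526, and edgeR without the library block gave 7.34 with an SE of 1.04. As log2 ratios of CPM plus 1, basal to LP was 3.39 at puberty, 3.95 in estrus and 6.45 in diestrus. Basal to ML was 3.37, 4.60 and 6.46 in the same libraries. In ML cells of estrus Id4 was found in 0 of 785 cells, which allows a share of up to 0.382% of cells with a count, by counting error alone, and does not limit the share of cells that hold Id4 RNA.

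**Figure D1:**
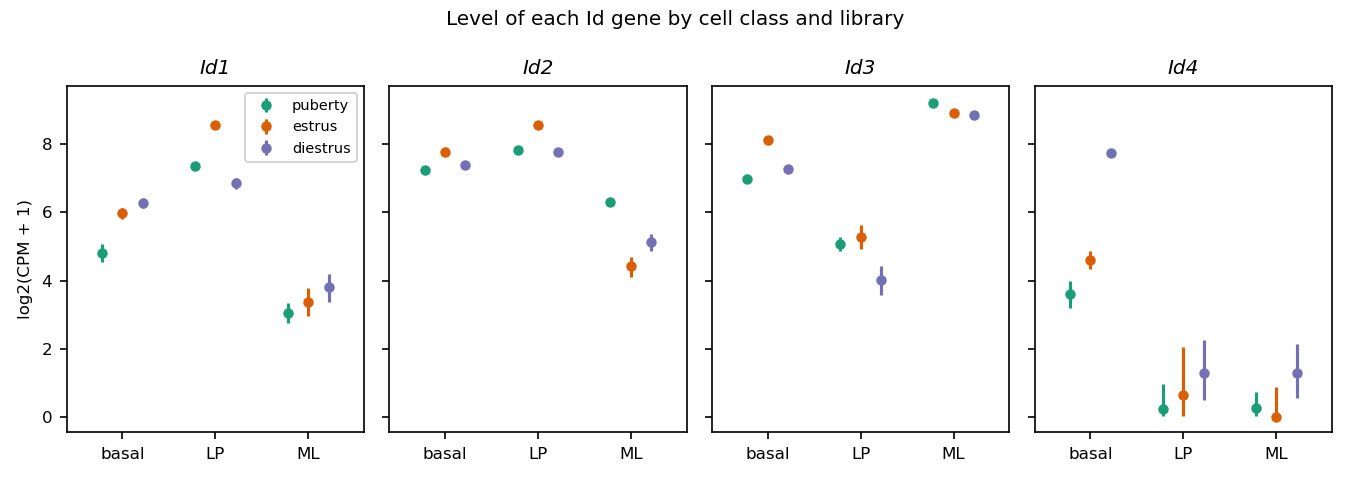
Level of each Id gene in basal, LP and ML cells, as log2(CPM + 1) on the vertical axis, with 1 point per library (puberty, estrus, diestrus) and exact Poisson 95% intervals of the summed counts. Id1 is highest in LP, Id3 in ML, and Id4 stands above the luminal classes in basal cells of all 3 libraries.

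RNA released from broken cells reaches all droplets, so low levels were set beside markers of the class where the gene is high. Id4 in diestrus was at 0.682% of its basal level in LP cells and 0.673% in ML cells, and the 8 basal markers ranged from 0.196% to 2.13% in LP and from 0.255% to 0.716% in ML. At puberty Id4 was at 1.495% of its basal level in LP and 1.65% in ML cells, above the highest marker (0.824% and 0.367%), and in estrus at 2.44% in LP cells (highest marker 0.354%). Those shares rest on 1 or 2 luminal Id4 counts a class. The part of free RNA in luminal Id4 was not tested. Id1 in ML cells was at 5.32%, 3.03% and 11.3% of its LP level, against 0.913%, 1.15% and 1.19% for the summed LP markers. Id3 in LP cells was at 4.54%, 6.38% and 3.25% of its ML level, against 2.11%, 1.58% and 1.65% for the summed ML markers. The low Id1 and Id3 levels were above those of the summed markers in each library. These markers were also used to name the classes, which by itself keeps their level low in other classes. Id genes took no part in the naming, so the comparison is uneven. The part of free RNA in the low Id1 and Id3 levels was not tested.

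Intermediate luminal cells, which carried markers of both LP and ML, had all 3 luminal members. Without TMM scaling, Id1 was at 76.6, 173.3 and 119.5 CPM in them at puberty, estrus and diestrus, and Id3 at 280.8, 427.8 and 327.2 CPM. Id4 had 0 counts in the 232, 111 and 94 intermediate cells of these libraries.

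Detection was counted as the share of cells with at least 1 count, which also depends on depth per cell and did not always order the libraries as the levels did. Id3 was detected in 55.4%, 60.8% and 58.7% of ML cells (exact Clopper-Pearson 95% intervals 53.2% to 57.5%, 57.2% to 64.2% and 54.9% to 62.5%) at puberty, estrus and diestrus. It was detected in 21.2%, 38.8% and 32.8% of basal cells, and in 6.89%, 7.63% and 4.60% of LP cells. Median depth was 2542 to 3382 counts in basal cells and 4146 to 4693 in ML cells. With each cell thinned to 2000 counts, Id3 was still found in 41.7% to 45.8% of ML cells and 14.4% to 30.5% of basal cells.

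Id1 was detected in 19.6%, 39.8% and 20.7% of LP cells and in 6.17%, 14.3% and 20.1% of basal cells. Id2 was detected in 33.2%, 51.5% and 46.5% of LP cells, 28.8%, 37.6% and 42.2% of basal cells and 16.7%, 9.30% and 13.2% of ML cells. Neither gene was seen in every cell of a class, and 3 or more counts of Id1 were present in 7.17%, 18.4% and 6.37% of LP cells. Id4 was detected in 3.49%, 7.19% and 46.0% of basal cells (intervals 2.49% to 4.73%, 5.85% to 8.73% and 42.9% to 49.1%). In diestrus 13.8% of basal cells had 3 or more Id4 counts, against 0.383% in estrus and 0 of 1119 cells at puberty.

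Between stages, the member with the largest difference was Id4 in basal cells. Diestrus exceeded estrus by a log2 ratio of 3.14 (counting interval 2.86 to 3.43), and puberty was below diestrus by -4.13 (-4.55 to -3.73). Ratios are of CPM plus 1, and their exact conditional intervals cover counting error only. Id4 was the member of this family at least 2-fold higher in basal cells of diestrus than of estrus, where 4.64% of all genes were. Without cycling cells the ratio was 3.29.

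In basal cells the other members did not follow Id4. Diestrus to estrus, Id1 had a ratio of 0.30 (0.08 to 0.52), Id2 of -0.38 (-0.51 to -0.24) and Id3 of -0.85 (-0.98 to -0.72). The Id1 ratio had no stable sign, at -0.018 without cycling cells. Puberty was lower than estrus for all 4 members, with ratios of -1.17 for Id1 (-1.48 to -0.85), -0.52 for Id2 (-0.66 to -0.37), -1.15 for Id3 (-1.30 to -0.999) and -0.99 for Id4 (-1.47 to -0.52). Id1 and Id3 were at least 2-fold lower, as 6.79% of all genes were. Puberty to diestrus, Id1 and Id4 were at least 2-fold lower, as 4.09% of genes were.

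In LP cells estrus had the highest level of Id1, Id2 and Id3. For Id3 the difference from puberty was within counting error (puberty to estrus -0.22, -0.61 to 0.19) and was 1.34 with Leiden classes. Diestrus to estrus, the ratios were -1.70 for Id1 (-1.90 to -1.51), -0.82 for Id2 (-0.98 to -0.66) and -1.26 for Id3 (-1.81 to -0.71). The Id3 ratio turned to 1.24 with Leiden classes, which put the cluster with both LP and ML markers in LP at puberty and in diestrus but in ML in estrus. Id1 and Id3 were at least 2-fold lower, as 6.05% of all genes were. Puberty to estrus, Id1 was at -1.18 (-1.32 to -1.04), where 4.61% of genes were at least 2-fold lower. Id3 in LP cells was at least 2-fold higher at puberty than in diestrus (1.04, 0.57 to 1.55), as 6.07% of genes were, and rested on 42 counts in diestrus. With Leiden classes this ratio was 0.10.

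In ML cells Id2 was the member that differed most. It was higher at puberty than in estrus by 1.89 (1.58 to 2.22), where 4.67% of genes were at least 2-fold higher, and than in diestrus by 1.18 (0.90 to 1.46), where 3.64% were. With Leiden classes the ratio of puberty to estrus was 0.76. Id3, the member highest in ML cells, differed little, with ratios of -0.07 (-0.16 to 0.03) diestrus to estrus and 0.28 (0.21 to 0.36) puberty to estrus. Fewer expressing cells and fewer molecules per cell both lower these sums.

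**Figure D2:**
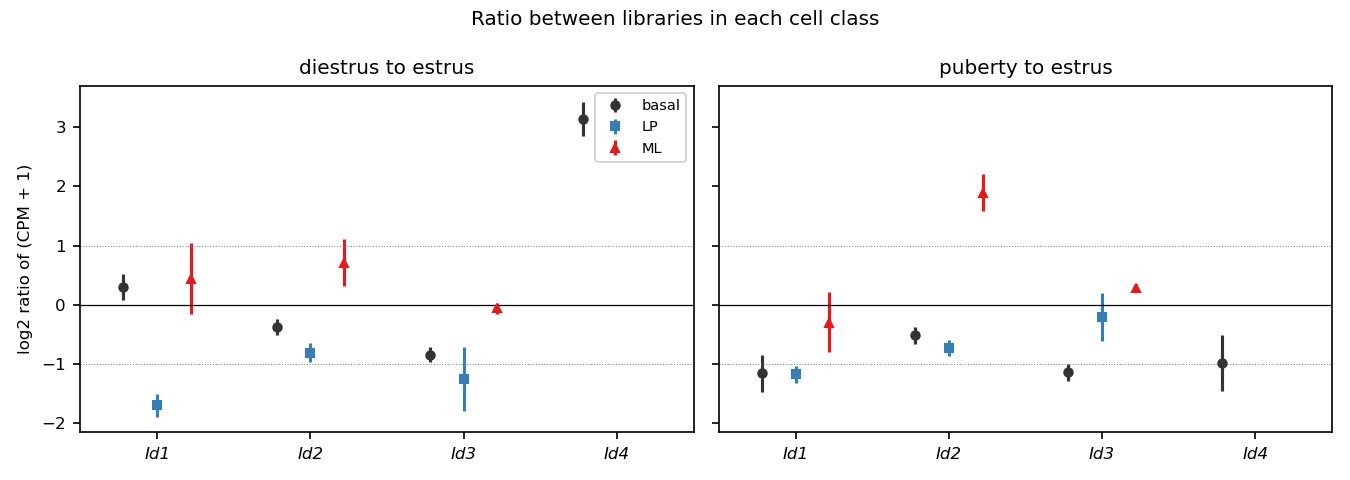
Log2 ratio of (CPM + 1) in diestrus to estrus (left) and puberty to estrus (right) for each Id gene in basal, LP and ML cells, with exact 95% counting intervals, and dotted lines at 2-fold. Id4 in luminal cells is left out for its low counts, and Id4 in basal cells of diestrus is the highest point at 3.14.

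Genes that respond quickly to tissue dissociation moved with the stages as well. All 10 immediate early and stress genes on a fixed list (Fos, Junb, Egr1 and others) were at least 2-fold lower in basal cells of puberty than of estrus, with a median log2 ratio of -1.73, beside a median of -0.79 diestrus to estrus. In LP cells 8 of the 10 were at least 2-fold lower at puberty than in estrus (median -1.13), and 3 of the 10 in diestrus than in estrus (median -0.89). In ML cells 6 of the 10 were at least 2-fold lower at puberty than in estrus. Over all genes these shares were 6.79% in basal, 4.61% and 6.05% in LP and 2.27% in ML cells. Their part in the Id1, Id2 and Id3 values was not tested.

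Id1 and Id3 are also abundant in endothelial and mural cells. The 14, 21 and 8 cells removed as non-epithelial from the puberty, estrus and diestrus libraries had Id3 at 2028, 1519 and 857.5 CPM. They had Id1 at 433, 965.3 and 95.3 CPM, the last from 3 counts. In LP cells, where Id1 was highest, the endothelial markers summed to 41, 19 and 29 counts, of which Pecam1 gave 39, 18 and 29. In basal cells the endothelial markers summed to 9, 8 and 9 counts, with Cdh5 and Emcn at 0. The pericyte markers summed to 3 counts at puberty, 111 in estrus and 20 in diestrus, of which Ndufa4l2 gave 2, 87 and 16, and were found in 2, 25 and 9 basal cells. The fibroblast markers were found in 306, 318 and 375 basal cells, nearly all through Dcn (1002, 1227 and 1154 counts), which had 3731, 941 and 2430 counts in ML cells as well. Leaving out cells with any non-epithelial marker count therefore removed mainly Dcn-positive cells. Without them, the Id3 ratio puberty to estrus was -0.76 and diestrus to estrus -0.63, so the ratios were smaller but kept their sign.

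Cycling basal cells, with counts for at least 3 of 10 cell cycle genes, made up 13.0% at puberty, 5.36% in estrus and 22.2% in diestrus. Id3 was at 19.8 CPM in cycling and 158.3 in other basal cells at puberty, 61.2 and 348.2 in estrus, and 104.2 and 201.5 in diestrus, here without TMM scaling. Id4 was at 22.8 and 7.21 CPM at puberty, 52.0 and 20.9 in estrus, and 257.2 and 203.3 in diestrus. Id3 was therefore lower and Id4 higher in cycling basal cells of 3 of 3 libraries. Their Poisson intervals did not overlap, but these cover counting error of the summed counts only, and not the spread between cells or mice. Id1 was lower in cycling cells at puberty (5.94 against 33.8 CPM) and in estrus (26.0 against 75.5), but not in diestrus (95.2 against 70.8).

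**Figure D3:**
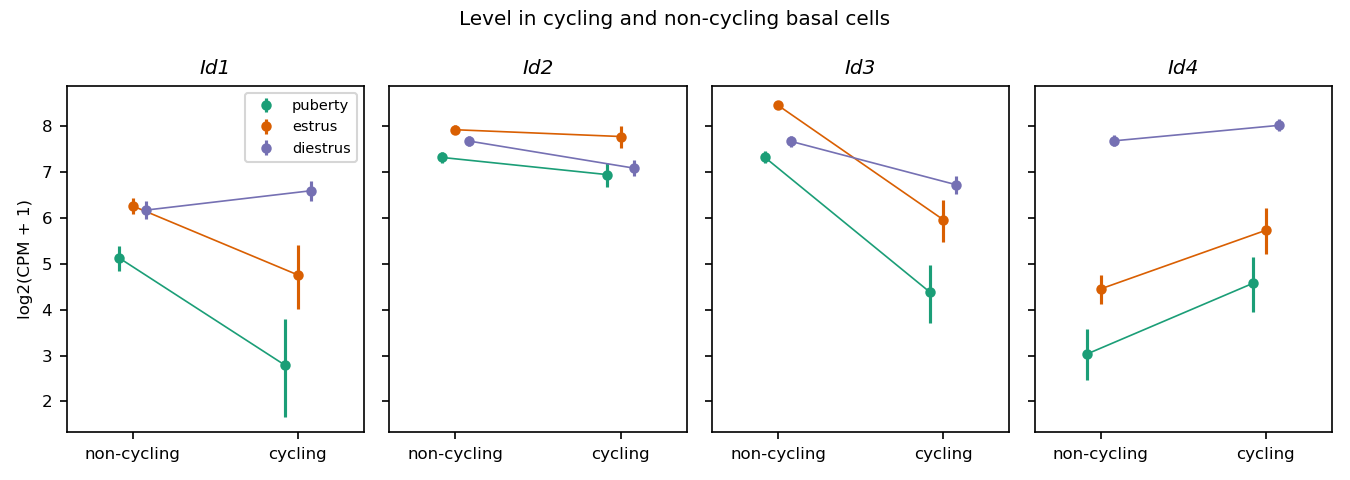
Level of each Id gene, as log2(CPM + 1) without TMM scaling, in non-cycling and cycling basal cells of the puberty, estrus and diestrus libraries, with exact Poisson 95% intervals and a line joining the cells of 1 library. Id3 falls and Id4 rises from non-cycling to cycling cells in all 3 libraries.

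Within basal cells Id1 and Id3 were found together more often than independent detection gives. In cells thinned to 2000 counts, the share with both was divided by the product of the shares of each gene, so that 1 marks independence. For Id1 and Id3 this ratio was 1.97 at puberty, 1.58 in estrus and 1.75 in diestrus (1.77 ± 0.192, SD, n = 3 libraries). The puberty value rests on few cells, with 11.2 expected to have both genes against 5.71 under independence. In estrus 48.4% of Id1-positive and 28.6% of Id1-negative basal cells had Id3. In cells without any non-epithelial marker count the ratio was 1.59.

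The other 5 pairs had means between 0.893 and 1.06. Id2 with Id3 varied least between libraries, at 1.10, 1.05 and 1.03. Id4 with Id1 was at 0.693, 1.18 and 0.810, and Id4 with Id3 at 1.30, 0.867 and 0.853, so neither kept 1 side of independence. At puberty only 1.88% of thinned basal cells had Id4, and its pairs there rest on few cells. In diestrus, 35.5% of thinned basal cells had none of the 4 members, 42.1% had 1, 19.3% had 2 and 3.04% had 3.

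**Figure D4:**
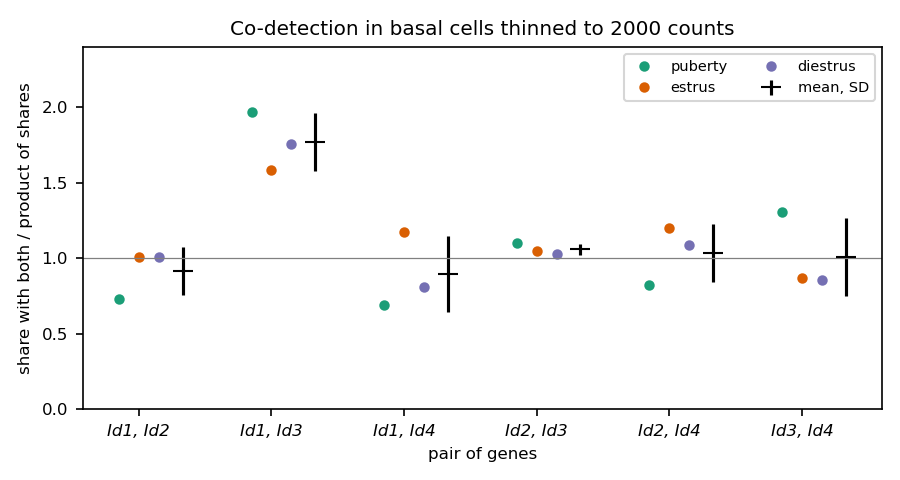
Co-detection ratio (share of basal cells with both genes divided by the product of both shares) for the 6 pairs of Id genes in cells thinned to 2000 counts, with 1 point per library and the mean with SD in black. Id1 with Id3 lies above 1.5 in each library, and the other pairs scatter around 1.

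The partners and regulators of Id proteins were read from fixed lists. Of the 3 E proteins, Tcf4 was higher in basal than luminal cells by 1.09 (SE 0.176, edgeR adjusted p 0.000361), Tcf12 was lower (-0.52, SE 0.14, adjusted p 0.00873) and Tcf3 gave -0.08 (adjusted p 0.531). All 3 tested HES and HEY genes were lower in basal cells than in the mean of LP and ML, where 40.3% of all genes were called either way, among them Hes6 (-1.86, edgeR adjusted p 4.84e-06). Against ML alone Hes1 and Hes6 were lower in basal cells, but Hey1 was higher (1.42, SE 0.3, edgeR adjusted p 0.00199). Hey1, like Id1, was higher in LP than in ML cells, by 6.36 (SE 0.236, edgeR adjusted p 1.6e-08). Hes6 went the other way (LP minus ML -0.81, SE 0.172, edgeR adjusted p 0.00313), and Hes1 did not pass (0.43, adjusted p 0.0388). Of 3 tested among 8 other bHLH genes, Bhlhe41 was lower in basal cells and Bhlhe40 was higher in LP than in ML cells (1.08, SE 0.278, edgeR adjusted p 0.00978). Msc, at no more than 9.13 CPM in any class, was lower in LP than in ML cells (-3.86, SE 0.868, edgeR adjusted p 0.00453).

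Among BMP ligands, 3 of 6 were tested. Bmp7 was higher in basal than luminal cells by 6.76 (SE 0.22, edgeR adjusted p 1.76e-09), Bmp2 was higher in LP than in ML cells by 5.88 (SE 0.546, adjusted p 9.35e-06), and Bmp3 was lower in LP than in ML cells (-5.92, SE 0.694, adjusted p 5.53e-05). Bmp2 and Bmp3 had only 128 and 138 counts in all. Bmp2 was at no more than 0.287 CPM in ML cells and Bmp3 at no more than 0.168 CPM in LP cells. Bmp7 was at no more than 1.44 CPM in LP and ML cells. The size of these 3 folds depends on how such low counts are moderated. Of 4 tested receptors Acvr2a was higher in basal cells (1.92, edgeR adjusted p 0.000266), and of 3 tested SMADs Smad1 was (1.90, adjusted p 3.08e-06). Of 6 tested BMP inhibitors and feedback genes, 5 were higher in basal cells, including Sostdc1, a secreted antagonist (7.46, edgeR adjusted p 4.69e-09), and Bambi, a decoy receptor (3.85, adjusted p 3.94e-08). Sostdc1 was at no more than 3.28 CPM in LP and ML cells, so the size of its fold has the same limit. Over all genes 40.3% were called basal against luminal, with 2426 of 11131 higher in basal cells, and 28.2% were called LP against ML. The calls of 1 in 4 receptors and 1 in 3 SMADs are therefore near the background. The medians over the tested genes of the lists were -0.08 for E proteins, -0.45 for ligands, 0.83 for receptors and 2.68 for inhibitors, beside 0.02 over all genes.

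In basal cells no tested BMP ligand, receptor, SMAD or inhibitor was at least 2-fold higher or lower in diestrus than in estrus. Over all genes 4.64% were higher and 4.36% lower by this measure, so a count of 0 in lists of this size is near the background. All 10 cell cycle genes were at least 2-fold higher there, with a median log2 ratio of 1.59. Of the 5 CDK inhibitors, Cdkn1c was higher in basal than luminal cells (5.48, SE 0.356, edgeR adjusted p 3.43e-07). Between LP and ML cells, 1 of the 5 was called higher in LP and 2 lower, where 28.2% of all genes were called. Cdkn1a was higher in LP cells (1.34, SE 0.223, edgeR adjusted p 0.000685). Cdkn2a (-6.56, SE 0.652, edgeR adjusted p 1.58e-05) and Cdkn2b (-2.75, SE 0.63, adjusted p 0.00503) were lower. Cdkn2a was at no more than 0.364 CPM and Cdkn2b at no more than 1.70 CPM in LP cells. Cdkn1c was at no more than 3.64 CPM in LP and ML cells. The size of the folds of these 3 genes therefore rests on few counts. Diestrus to estrus in basal cells, Cdkn1a was at least 2-fold lower (-1.33). Cdkn2a (1.14) and Cdkn2b (-1.035) also passed 2-fold there, but at no more than 4.42 CPM.

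The genes whose pattern was most like each member were ranked by Pearson r of log2(CPM + 1) over 9 class and library sums, among 3954 genes. For Id1 these included Sfrp2 (0.99), Ntan1, Rpia and Wnt5b, and for Id2 Creb5 (0.97), Tm4sf1, Errfi1, Gas6 and Trip6. For Id3 they were Tmem159 (0.99), Fmo2, Rhoc, Enho and Grb14. For Id4 they were Gtf2f2 (0.97), Them5, Actb, Hras and Ahsa1. Them5 was at 19.5, 21.6 and 70.9 CPM in basal cells of puberty, estrus and diestrus and at no more than 1.82 CPM in luminal cells. Unlike Id4, the others were present in luminal cells. Gtf2f2 was there at 30.9 to 43.4, Actb at 858.3 to 1149, Hras at 25.8 to 42.2 and Ahsa1 at 119.6 to 177.7 CPM. A high r therefore does not mean that folds are of like size. The sums share libraries, and these values are descriptions.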

How the data were processed

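Each deposited value was a count of molecules per gene and cell barcode, which the authors made with Cell Ranger 2.0 on mm10, per the labels; no value was normalized. The members and gene lists were chosen with earlier results of these data known. Cells with at least 3 of 5 immune, endothelial, fibroblast or pericyte markers, and more of these than of keratins, were removed. Seed cells led by a z-score margin of 1 over 8 markers per class, and signatures of up to 100 genes at least 2-fold higher in seeds of every library, without Id genes, placed each cell. No doublet caller was run. Counts were summed per class and library into 9 pseudobulks and fitted with edgeR 4.0.16 in R 4.3.3 (TMM, filterByExpr, quasi-likelihood test). The library was a block, since its classes came from the same pooled mice. DESeq2 1.42.0 was an alternative. The fit was tested on simulated data. Levels carry exact Poisson intervals, shares exact Clopper-Pearson intervals at 95%, and a count of 0 allows up to 3 counts. Thinned shares are expected values over draws of 2000 counts per cell, and shallower cells were left out. The numbers of members per cell came from 1 seeded draw. Named genes were the members, the fixed lists with their smallest adjusted p, and the 5 genes most like each member among those of at least 50 CPM in a pseudobulk, of which 1 is not reported here. Positions and transcripts came from GENCODE M21.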

Additional observations from a re-analysis of the deposited data

Results flagged for a closer look

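Some members differed between libraries in opposite directions in different cell classes, with counting intervals clear of 0 on both sides. With 1 library per stage the difference between classes was not tested. Id1 had a log2 ratio, diestrus to estrus, of 0.30 in basal cells and -1.70 in LP cells, and puberty to diestrus of -1.46 in basal, -0.75 in ML and 0.52 in LP cells. Without cycling cells the basal ratio diestrus to estrus was -0.018, so this opposition did not hold there. Id2 had a ratio, puberty to estrus, of 1.89 in ML cells, against -0.52 in basal and -0.74 in LP cells, and diestrus to estrus of 0.71 in ML cells, against -0.38 in basal and -0.82 in LP cells. With Leiden classes the latter ML ratio was -0.38. Id3 had a ratio, puberty to estrus, of -1.15 in basal and 0.28 in ML cells, and puberty to diestrus of -0.30 in basal cells, against 1.04 in LP cells and 0.35 in ML cells. Without TMM scaling the Id3 ratio in ML cells, puberty to estrus, was -0.019. As a mean over cells, the Id1 ratio in LP cells, puberty to diestrus, was -0.085, and with Leiden classes the Id3 ratio there was 0.10.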

How the results depend on the processing

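The class differences of the members kept their calls under most alternatives, and with 1 library per stage no stage value had a replicate. Over all alternatives Id4 basal against luminal ranged from 6.09 to 7.34, and LP against ML from 3.69 to 4.80 for Id1, 1.97 to 3.40 for Id2 and -4.49 to -2.81 for Id3, all past the threshold. The fit without cells carrying a non-epithelial marker count and the contrasts of basal with LP and with ML were chosen after seeing the data. Without the replicate block, 3009 genes were called basal against luminal, 1769 LP against ML (3138 with it), 2429 basal against LP (3681 with it) and 3237 basal against ML, and no call of a member changed. Leaving out 1 library gave 2050 (without estrus) to 2274 genes LP against ML. It gave Id1 basal against luminal -0.18 (without diestrus) to 0.47, Id4 LP against ML -0.10 (without estrus) to 0.89, Id2 and Id3 basal against luminal 0.55 and 0.35 (without estrus) to 1.05 and 0.88 (without puberty, edgeR adjusted p 0.00173 and 0.00241), Id1 basal against LP -2.58 (without diestrus) to -1.55 (without estrus, edgeR adjusted p 0.0125) and Id2 basal against ML 1.53 (without estrus) to 2.75 (without puberty), with the call lost at 1.83 (without diestrus, edgeR adjusted p 0.0178). Without a filter on low counts Id2 and Id3 basal against luminal passed at 0.73 and 0.60, and Id3 without cycling cells at 0.80.

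Stage ratios outside their counting interval are named by gene and class. Without cycling cells, diestrus to estrus gave Id1 basal -0.018, Id1 LP -1.33, Id2 basal -0.17, Id2 LP -0.54, Id3 basal -0.71 and Id3 ML 0.064, puberty to estrus gave Id2 LP -0.59, Id3 basal -0.95 and Id3 ML 0.36, and puberty to diestrus gave Id1 basal -0.94 and Id1 LP 0.25. As means over cells of counts per 10000, diestrus to estrus gave Id1 basal -0.16, Id1 LP -1.22, Id2 LP -0.58 and Id3 ML -0.22, puberty to estrus gave Id3 ML 0.15, and puberty to diestrus gave Id1 basal -1.04, Id1 LP -0.085, Id2 LP -0.25 and Id3 basal -0.11. Leaving out TMM scaling shifted the median ratio over all genes by up to -0.30 (LP, puberty to diestrus). Without it, diestrus to estrus gave Id3 ML -0.27, puberty to estrus gave Id1 LP -1.47, Id2 basal -0.67, Id2 LP -1.03 and Id3 ML -0.019, and puberty to diestrus gave Id1 LP 0.17, Id2 LP -0.28 and Id3 ML 0.25. With Leiden classes, diestrus to estrus gave Id1 ML -1.13, Id2 ML -0.38 and Id3 LP 1.24, puberty to estrus gave Id1 ML -1.75, Id2 ML 0.76, Id3 basal -0.85 and Id3 LP 1.34, and puberty to diestrus gave Id3 basal -0.016 and Id3 LP 0.10. In these classes the cells with both luminal marker sets fell into ML in estrus and into LP in the other libraries. Without cells carrying a non-epithelial marker count, diestrus to estrus gave Id2 basal -0.54, Id3 basal -0.63, Id3 ML 0.11 and Id4 basal 3.46, puberty to estrus gave Id3 basal -0.76, and puberty to diestrus gave Id3 basal -0.13 and Id3 ML 0.17. The cause of the other shifts was not tested.

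Thinned to 2000 counts, detection at puberty, estrus and diestrus fell to 4.60%, 10.0% and 11.2% of basal, 13.8%, 31.7% and 13.9% of LP and 1.27%, 1.54% and 2.34% of ML cells for Id1. For Id2 it was 21.3%, 28.8% and 26.6% of basal, 22.4%, 39.0% and 29.8% of LP and 10.0%, 4.52% and 6.21% of ML cells. For Id3 it was 14.4%, 30.5% and 21.1% of basal, 4.05%, 4.69% and 2.26% of LP and 41.7%, 45.8% and 44.1% of ML cells, and for Id4 1.88%, 4.08% and 32.3% of basal cells. Co-detection moved past its SD for Id2 with Id4 on counts as deposited (1.30) and for Id3 with Id4 at 3000 counts (0.726), and Id1 with Id3 stayed between 1.59 and 1.76 over its alternatives. Depth limits Id4 in luminal cells and its pairs at puberty.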
